A study of Mus musculus with 16 samples.

Results

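The integrated stress response was followed through 10 genes, chosen by symbol: Atf4, its bZIP partners and targets Cebpg, Cebpb, Atf5, Atf3 and Ddit3, the cofactor Nupr1, the feedback regulators Trib3 and Ppp1r15a, and the effector Chac1. These genes, and the lists of related genes below, were chosen with earlier results of these data known. All 10 were among the 40840 genes of the count table, and all 10 were among the 20444 genes with at least 10 counts in total. RNA came from p53-/-; Myc hepatoblasts, a single line of mouse liver progenitor cells that lack the tumor suppressor p53 and overexpress the oncogene Myc. Sorafenib is an oral inhibitor of several kinases given in advanced hepatocellular carcinoma. Cells received sorafenib for 48 hours, its vehicle DMSO for 48 hours, sorafenib for 7 days or DMSO for 7 days, with 4 libraries in each of the 4 groups. The dose was 8.5 µM in the study's methods. All 16 libraries share the p53-/- and Myc background, so no group shows the response in cells without it, and nothing states that replicates were separate cultures. The p-values then measure the spread between these samples, which may be technical.

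In the integrated stress response, the kinases PERK, GCN2, HRI and PKR phosphorylate the translation initiation factor eIF2. Most translation falls, while a few mRNAs with short upstream reading frames, Atf4 among them, are translated more. ATF4 then binds DNA with C/EBP family partners and turns on genes for amino acid supply, redox balance and, through CHOP, cell death, and it also turns on the genes that switch the response off. Mitochondrial damage can reach this pathway through HRI. The counts below are of RNA, so they do not show how much ATF4 protein was made.

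Promoter sequence of the 10 genes was read from 250 bases before to 50 bases after the start of the canonical transcript (genome GRCm39, annotation GENCODE M39) and searched on both strands. The letters TGATGNAA, the C/EBP-ATF response element that ATF4 dimers bind, were present for 3 of the 10 genes and for 837 of 21751 promoters (3.85%). The cAMP response element TGACGTCA, which binds bZIP factors of the CREB and ATF families, was present for 1 of the 10 and for 532 promoters (2.45%). The ER stress element, bound by ATF6, was present for 0 of the 10 and for 27 promoters (0.124%). The stretches with a match are shown because they carry the letters through which ATF4 and its partners are known to reach their targets, and the 3 C/EBP-ATF elements read the same 8 letters. Capitals mark the match, the stretches are written 5′ to 3′ on the strand of the gene, and no match of one motif overlapped a match of another.
Chac1, chr2:119181519-119181548, plus strand: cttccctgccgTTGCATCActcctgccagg
Ddit3, chr10:127126350-127126379, plus strand: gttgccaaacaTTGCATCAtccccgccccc
Atf3, chr1:190915622-190915651, minus strand: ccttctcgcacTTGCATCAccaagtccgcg
Ppp1r15a, chr7:45175693-45175715, minus strand: cgcctctccggTGACGTCAgcac
Counted from the start, the matches lie at -159 to -152 in Chac1, -199 to -192 in Ddit3, -103 to -96 in Atf3 and -12 to -5 in Ppp1r15a. Atf4, Atf5, Cebpb, Cebpg, Nupr1 and Trib3 held none of these letters in this window.

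Depth and cell identity touch every result below. Libraries held 16586254 to 30828427 counts on genes. The median was lowest in sorafenib at 48 hours, at 20520382, against 26379299 in DMSO at 48 hours. At 7 days it was 28612782 in DMSO and 27021145 in sorafenib. In replicate 2 of sorafenib at 48 hours, genes with at least 100 normalized counts lay 0.08 to 0.10 above the other 3 replicates (median log2 deviation per chromosome) on chromosomes 1 to 13, but between -0.64 and -0.62 on chromosomes 15 to 19 and X. Atf4, on chromosome 15, is the only one of the 10 genes in the lowered stretch, with a deviation of -0.56, so its values are given with and without this library. The same library was the highest of its group for 8 of the other 9 genes. Of the liver progenitor markers, Dlk1 (3488 to 38122 counts), Krt19 and Sox9 were counted in every library, but the hepatocyte regulator Hnf4a had 0 counts in all 16, Alb at most 1 and Afp at most 14. Summed CPM (counts scaled to a fixed library total) of 5 stromal markers, led by Col1a1 and Acta2, ran from 1883 to 2056 in DMSO and 5322 to 6036 in sorafenib at 48 hours, and from 2620.3 to 2688 and 4586 to 4766 at 7 days. Summed CPM of 9 progenitor markers ran from 1402 to 1497 and 473 to 559 at 48 hours, and from 706 to 801 and 241 to 252 at 7 days. The members of these lists did not all move with their sum. Mean CPM of Pdgfrb was 68.3 in DMSO and 38.0 in sorafenib at 48 hours and 28.2 and 18.8 at 7 days, and that of Des was 3.66 and 2.83, then 1.66 and 0.749. The progenitor sum was mostly Dlk1 (1319.8 and 408, then 659 and 161), while Sox9 was higher in sorafenib (8.71 and 25.9, then 13.7 and 36.1). Endothelial and leukocyte sums stayed at or below 8.86 and 3.40 CPM, with Adgre1 at 0 and Ptprc at most 4 counts. The part of these shifts in the results was not tested, and in bulk RNA a change in the cells present and a change in RNA per cell cannot be told apart. Trp53 had 1268 to 4799 counts and Myc 4226 to 17797, and counts on Trp53 do not show whether its protein is made.

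At 48 hours, sorafenib raised 9 of the 10 genes and lowered 0, at a Benjamini-Hochberg FDR under 0.05 over all 20444 genes in edgeR's quasi-likelihood test. Over all genes tested, 54.6% were called, 26.9% higher and 27.7% lower. At 7 days 9 genes were higher and 1, Cebpb, was lower, where 56.8% of all genes were called, 28.9% higher and 27.9% lower. The median log2 fold change of the 10 genes was 3.08 at 48 hours, against -0.05 over all genes, and 2.21 at 7 days, against 0.02. In 9 genes the 4 sorafenib libraries lay apart from the 4 DMSO libraries at 48 hours, and in all 10 at 7 days, which held for 48.0% and 56.8% of all genes. Each comparison without overlap had the smallest p that an exact two-sided permutation test of 4 against 4 can give, 0.0286. Trib3, Chac1, Ddit3, Nupr1 and Atf3 rose by more than 3 log2 units at 48 hours, and Trib3 and Ppp1r15a did so at 7 days.

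**Figure D1:**
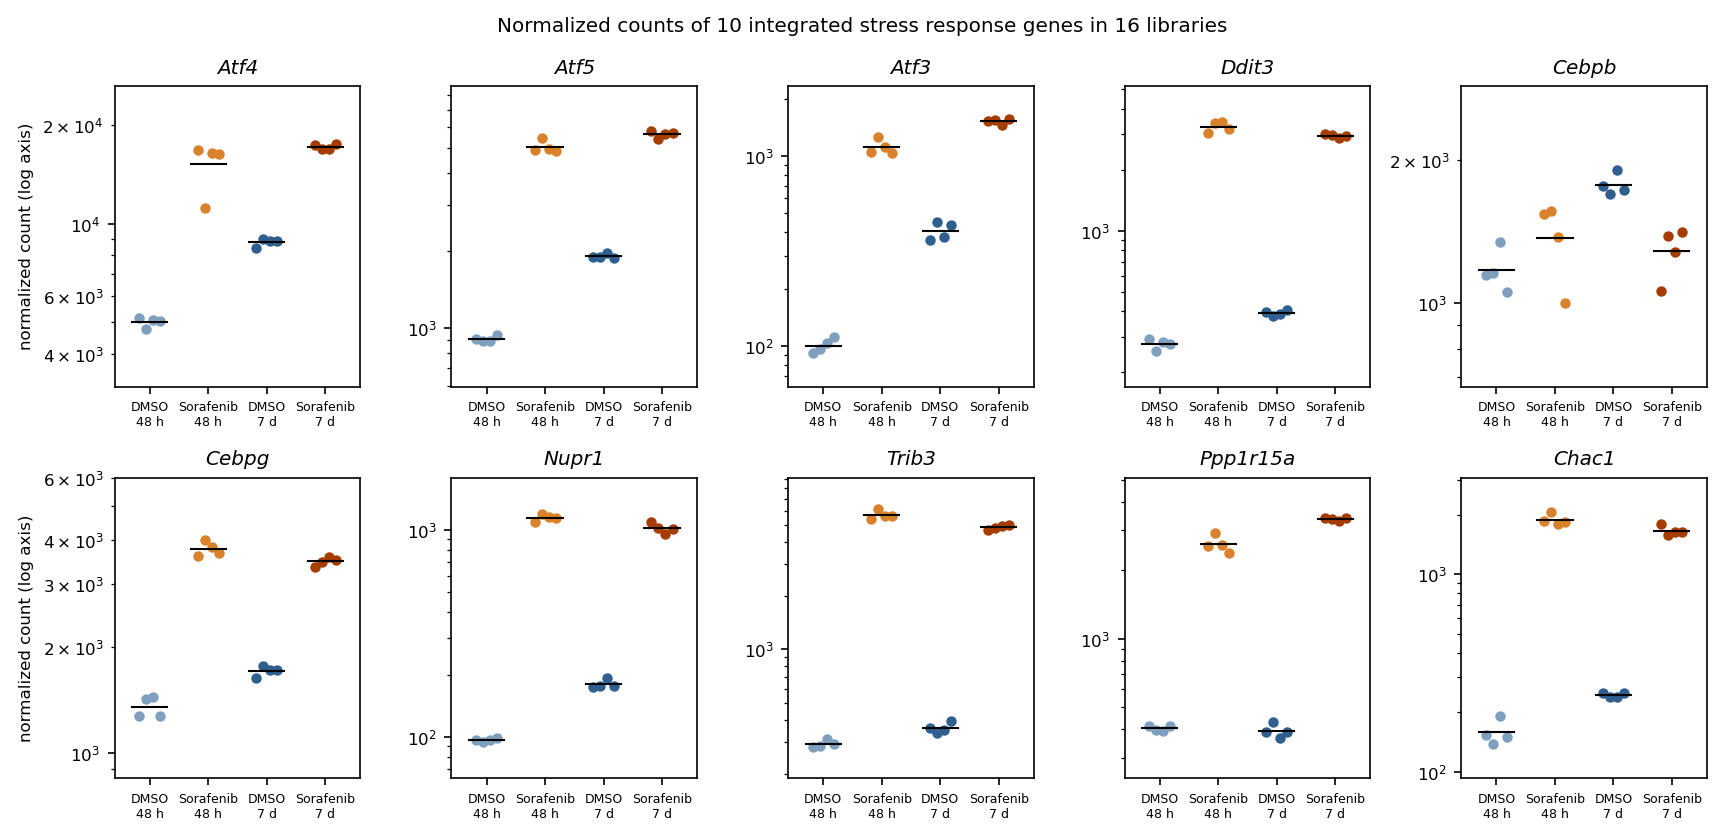
Normalized counts (log axis) of the 10 genes in each of the 16 libraries, 1 panel a gene, with points for libraries in replicate order and a line at the group mean. Sorafenib libraries lie above the DMSO libraries of the same time in every panel but Cebpb, and the single low Atf4 point at 48 hours is replicate 2 of sorafenib, at 11184.

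Atf4 (chr15:80139372-80141745, plus strand) encodes the factor at the center of the response. Its normalized counts (counts scaled to a common library size, replicates 1 to 4) were 5166, 4772, 5078 and 5053 in DMSO and 16822, 11184, 16371 and 16337 in sorafenib at 48 hours. At 7 days they were 8427, 8994, 8846 and 8828 in DMSO and 17397, 16902, 16898 and 17513 in sorafenib. The 4 groups did not overlap, and the order from low to high was DMSO at 48 hours, DMSO at 7 days, sorafenib at 48 hours and sorafenib at 7 days. At 48 hours the means were 5017 ± 170.4 and 15179 ± 2672 (SD, n = 4 each), a log2 fold change of 1.60 ± 0.0846 (SE, edgeR FDR 2e-12). Without replicate 2 the sorafenib mean was 16510.2 ± 271 (SD, n = 3) and the log2 fold change 1.72 (edgeR FDR 5.78e-44). At 7 days the log2 fold change was 0.97 ± 0.0829 (edgeR FDR 3.41e-09), from 8774 ± 243 to 17177 ± 324. Atf4 RNA therefore went up about 3.03-fold and 1.96-fold, the log2 fold changes from edgeR put on a linear scale. It had the highest level of the 10 genes per kilobase of transcript in all 4 groups. Leaving replicate 2 out also lowered the edgeR FDR of genes off the lowered chromosomes, even at 7 days, where that library is not compared. For Trib3 at 48 hours the FDR went from 1.06e-21 to 5.1e-54, and for Atf3 at 7 days from 4.12e-15 to 5.71e-35. The fall in FDR was therefore not particular to Atf4.

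Cebpg (chr7:34745847-34756011, minus strand) encodes C/EBPγ, a bZIP protein that pairs with ATF4 on amino acid response genes. Its counts at 48 hours were 1272, 1418, 1443 and 1275 in DMSO and 3613, 4009, 3815 and 3687 in sorafenib. By 7 days they were 1634, 1764, 1718 and 1711 in DMSO and 3366, 3457, 3587 and 3515 in sorafenib. Both sorafenib groups stood clear of both DMSO groups, with the 48 hour sorafenib libraries the highest. The log2 fold change was 1.48 ± 0.0459 (SE, edgeR FDR 3.86e-16) at 48 hours and 1.03 ± 0.0449 (FDR 8.91e-14) at 7 days. After Cebpb, Cebpg had the smallest rise at 48 hours, close to that of Atf4.

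Cebpb (chr2:167530835-167532338, plus strand) encodes C/EBPβ, a bZIP factor of the liver acute phase response that also pairs with ATF4 and CHOP. Counts at 48 hours were 1149, 1159.9, 1345 and 1056 in DMSO and 1543, 1561, 1375 and 1002 in sorafenib. The groups overlapped, since replicate 4 of sorafenib was below every DMSO library, and the log2 difference of 0.21 ± 0.111 (SE) was not called (edgeR FDR 0.113, exact permutation p = 0.257). Without replicate 4 of sorafenib the difference was 0.31 and was called (edgeR FDR 0.0068). Without replicate 2 of sorafenib, the highest for Cebpb, it was 0.15 and was not called (edgeR FDR 0.101). At 7 days counts were 1765, 1697, 1906 and 1725 in DMSO and 1063, 1386, 1282 and 1409.7 in sorafenib. All 4 sorafenib libraries were below all 4 DMSO libraries, and Cebpb fell by 0.46 on the log2 scale (SE 0.108, edgeR FDR 0.00106). DMSO at 7 days was the one Cebpb group that lay apart from the other 3, which overlapped with their neighbors. Cebpb also had the widest spread of the 10 genes within both sorafenib groups (coefficient of variation 18.9% at 48 hours and 12.3% at 7 days).

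Atf5 (chr7:44461680-44466082, minus strand) encodes a bZIP factor that is translated under eIF2 phosphorylation, as ATF4 is, and that takes part in the mitochondrial unfolded protein response. Its counts at 48 hours were 910, 890.1, 896 and 941 in DMSO and 4898, 5485, 4939 and 4873 in sorafenib. At 7 days they were 1885, 1889, 1965 and 1873 in DMSO and 5789.5, 5421, 5646 and 5707 in sorafenib. The sorafenib groups of the 2 times overlapped with each other and lay above both DMSO groups. The rise was 2.47 ± 0.0411 log2 units (SE, edgeR FDR 5.21e-20) at 48 hours and 1.57 ± 0.0389 (FDR 1.19e-17) at 7 days, or 5.55-fold and 2.96-fold.

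Atf3 (chr1:190902493-190950241, minus strand), with the C/EBP-ATF element shown above, encodes a bZIP repressor that many stresses induce early. Counts at 48 hours were 91.9, 96.3, 104 and 111 in DMSO and 1057, 1258, 1121 and 1041 in sorafenib. By 7 days counts were 361, 449, 374 and 435 in DMSO and 1529.8, 1556, 1457 and 1558 in sorafenib. None of the 4 groups overlapped, and both the DMSO and the sorafenib libraries were higher at 7 days than at 48 hours. Sorafenib raised Atf3 11-fold at 48 hours, a log2 fold change of 3.47 ± 0.0855 (SE, edgeR FDR 1.2e-17). At 7 days the rise was 3.76-fold, or 1.91 ± 0.0689 log2 units (FDR 4.12e-15). Per kilobase of transcript, Atf3 had the lowest level of the 10 genes in both 48 hour groups.

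Ddit3 (chr10:127124268-127132163, plus strand), with the same 8 letters in its promoter, encodes CHOP, the bZIP factor that ties prolonged stress to cell death. At 48 hours its counts were 292, 254, 283 and 276 in DMSO and 3034, 3399, 3459.7 and 3192 in sorafenib. The 7 day counts were 396, 380.3, 389 and 407 in DMSO and 2994, 2964, 2860 and 2944 in sorafenib. The lowest sorafenib library held several times the count of the highest DMSO library at each time. The log2 fold change was 3.57 ± 0.0508 (SE, edgeR FDR 7e-21) at 48 hours and 2.90 ± 0.0484 (FDR 3.62e-20) at 7 days. Per kilobase, Ddit3 ranked 5 of the 10 genes in DMSO and 2 in sorafenib at 48 hours. Ddit3 overlaps Mars1, the methionyl-tRNA synthetase gene, on the opposite strand by 3576 exon bases, taken over all annotated transcripts, and the strand setting of the counting is not given in the sources used here, so part of its counts could belong to Mars1.

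Nupr1 (chr7:126222414-126230033, minus strand) encodes a small nuclear stress protein that acts with ATF4 and CHOP on shared targets. Its counts at 48 hours were 96.8, 94.6, 97 and 98.5 in DMSO and 1092, 1195, 1158 and 1144 in sorafenib. At 7 days they were 174, 176, 192 and 175 in DMSO and 1090, 1025, 959 and 1008 in sorafenib. In DMSO at 48 hours its libraries were the closest together of the 10 genes, with a coefficient of variation of 1.68%, and sorafenib libraries lay above all DMSO libraries. The rise was 11.8-fold (3.57 ± 0.0582 log2 units, SE, edgeR FDR 4.12e-20) at 48 hours and 5.68-fold (2.51 ± 0.0526, FDR 9.74e-19) at 7 days. Nupr1 shares 834 exon bases with the noncoding gene Gm39087 on the opposite strand.

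Trib3 (chr2:152179337-152191958, minus strand) encodes a pseudokinase that binds ATF4 and CHOP and dampens their activity, and it had the largest response of the 10 genes at both times. Its counts at 48 hours were 282, 285, 314 and 294 in DMSO and 5395, 6129, 5585 and 5556 in sorafenib. The 7 day libraries held 362, 338, 351 and 393 in DMSO and 4679, 4804, 4936 and 4957 in sorafenib. The groups were far apart at both times, and sorafenib at 48 hours was the highest. The log2 fold change was 4.27 ± 0.0533 (SE, edgeR FDR 1.06e-21), or 19.3-fold, at 48 hours. At 7 days it was 3.75 ± 0.0517 (FDR 2.4e-21), or 13.4-fold. Among the 10646 genes that averaged 100 or more normalized counts, Trib3 had the 38th largest rise at 48 hours and the 41st at 7 days, against 451st and 850th for Atf4.

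Ppp1r15a (chr7:45172340-45175692, minus strand), with the cAMP response element close to its start, encodes GADD34, which brings a phosphatase to eIF2 and lets translation resume. Its counts at 48 hours were 412, 399, 395 and 416 in DMSO and 2561, 2926, 2588 and 2387 in sorafenib. At 7 days they were 388, 431, 366 and 389 in DMSO and 3394, 3339.6, 3282 and 3403 in sorafenib. The DMSO groups of the 2 times overlapped, and the sorafenib libraries at 7 days were above those at 48 hours. The log2 fold change was 2.69 ± 0.0574 (SE, edgeR FDR 1.44e-18) at 48 hours and 3.09 ± 0.0574 (FDR 1.46e-19) at 7 days, or 6.44-fold and 8.52-fold. Its place by rise went from 164th to 73rd of the 10646 genes.

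Chac1 (chr2:119180757-119184866, plus strand), the third gene with the C/EBP-ATF element, encodes an enzyme that breaks down glutathione. Its counts at 48 hours were 152, 139, 192 and 150.4 in DMSO and 1851, 2061, 1794 and 1832 in sorafenib. After 7 days the counts were 249.8, 239, 238 and 250.4 in DMSO and 1793, 1573, 1645 and 1634 in sorafenib. Sorafenib libraries lay above all DMSO libraries at both times. The rise was 3.58 ± 0.0741 log2 units (SE, edgeR FDR 9.71e-19) at 48 hours and 2.76 ± 0.0693 (FDR 1.37e-17) at 7 days, or 11.9-fold and 6.8-fold. Among the rest, Atf5 shares 180 exon bases with Nup62 and Il4i1, Cebpb 312 with Peds1, Ppp1r15a 12 with Tulp2 and Cebpg 73 with Gm44836 and 4 with Gm45095, while Atf4, Atf3, Trib3 and Chac1 share no exon bases with another gene in GENCODE M39.

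The strength of the response was then compared between the times through the interaction of treatment and time. In 9 of the 10 genes the log2 response was lower at 7 days than at 48 hours, and in 1, Ppp1r15a, it was higher, all called by edgeR. Over all genes tested, 36.8% were called in this comparison, 21.3% lower and 15.5% higher, and the median difference was -0.67 for the 10 genes against 0.02 for all. The decline in log2 response was widest for Atf3, at -1.55 ± 0.113 (SE, FDR 1.22e-09), and for Nupr1, at -1.06 ± 0.0824 (FDR 3.17e-09). The Atf3 level in sorafenib was itself higher at 7 days (mean 1525) than at 48 hours (1119). The decline was -0.90 ± 0.0553 for Atf5 (FDR 8.97e-11) and -0.81 ± 0.104 for Chac1 (FDR 3.09e-06). The early repressor and the nuclear cofactor were thus at the far end of the range, and the genes for CHOP and ATF4 lay in its middle. For Cebpb, whose response went from a difference not called to a fall, it was -0.68 ± 0.155 (FDR 0.00161). The response of Ddit3 declined by a log2 difference of -0.66 ± 0.0695 (FDR 2.15e-07). That of Atf4 did so by -0.63 ± 0.117 (FDR 0.000224), and by -0.75 without replicate 2 of sorafenib at 48 hours. The dampening pseudokinase and the C/EBPγ partner came next. Differences were smaller for Trib3, at -0.52 ± 0.0724 (FDR 8.16e-06), and for Cebpg, at -0.46 ± 0.0636 (FDR 9.02e-06). Ppp1r15a, the eIF2 phosphatase subunit, gained 0.40 ± 0.0802 (FDR 0.000432).

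**Figure D2:**
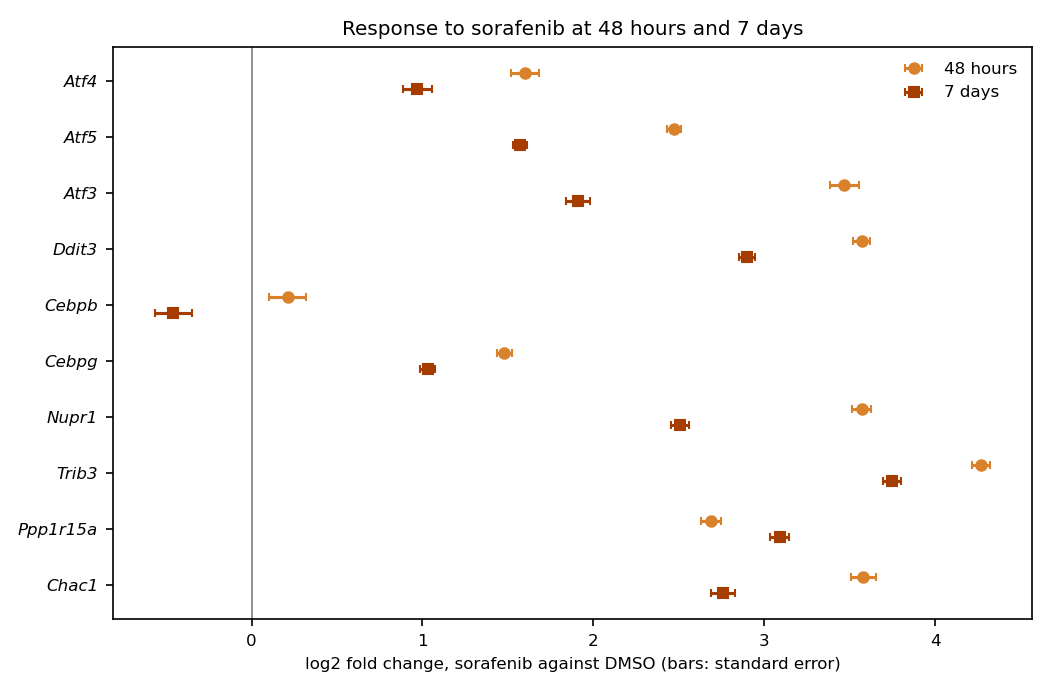
Log2 fold change of sorafenib against DMSO for the 10 genes at 48 hours (circles) and 7 days (squares), with bars of 1 standard error from the edgeR fit. The 7 day point is to the left of the 48 hour point for 9 genes and to the right for Ppp1r15a, which goes from 2.69 to 3.09.

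This difference equals the change over time in sorafenib less that in DMSO, and both changes were measured. The libraries of the 2 times are different samples, and the labels name no harvest or batch. A difference of harvest or batch between the times therefore cannot be told apart from time itself. In DMSO, 9 of the 10 genes were higher at 7 days than at 48 hours and 0 were lower, where 49.4% of all genes were called, 23.9% higher and 25.5% lower. Their median log2 change was 0.61, against -0.01 over all genes, and in 9 the DMSO groups did not overlap (50.8% of all genes). Atf3 rose by 2.00 ± 0.0914 (SE, edgeR FDR 5.92e-13), from a mean of 101 ± 8.65 to 405 ± 43.7 (SD, n = 4 each), the 62nd largest rise of the 10646 genes. Atf5 rose by 1.06 ± 0.0407 (FDR 4.96e-14), Nupr1 by 0.89 ± 0.0692 (FDR 1.5e-09) and Atf4 by 0.81 ± 0.0834 (FDR 9.07e-08). Ppp1r15a was the gene not called, at -0.04 ± 0.0626 (FDR 0.608). The other 5, Chac1, Cebpb, Ddit3, Cebpg and Trib3, rose by 0.63, 0.59, 0.51, 0.34 and 0.30.

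In sorafenib, 3 of the 10 genes were higher at 7 days, 5 were lower and 2 were not called, where 39.7% of all genes were called, 17.5% higher and 22.3% lower. The groups did not overlap in 8 of the 10, against 35.8% of all genes. These changes were small, the largest being 0.45 ± 0.0643 for Atf3 (SE, edgeR FDR 1.11e-05) and 0.36 ± 0.05 for Ppp1r15a (FDR 7.52e-06). Atf5 rose by 0.16 ± 0.0376 (FDR 0.00183). The pseudokinase gene Trib3 fell by 0.23 (FDR 0.000278), Chac1 by 0.18, Nupr1 by 0.17, Ddit3 by 0.15 and Cebpg by 0.12 (FDR 0.0382). Atf4 was at 0.18 ± 0.0821 (FDR 0.0963), or 0.06 without replicate 2 of sorafenib at 48 hours, and Cebpb at -0.08 ± 0.111 (FDR 0.594). The calls for Cebpg, Chac1 and Ddit3 were lost, and that for Atf4 gained, under some alternatives. In all 10 genes the level in sorafenib thus stayed within 0.45 log2 units between the times. The level in DMSO rose by 0.30 to 2.00 in every gene but Ppp1r15a.

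**Figure D3:**
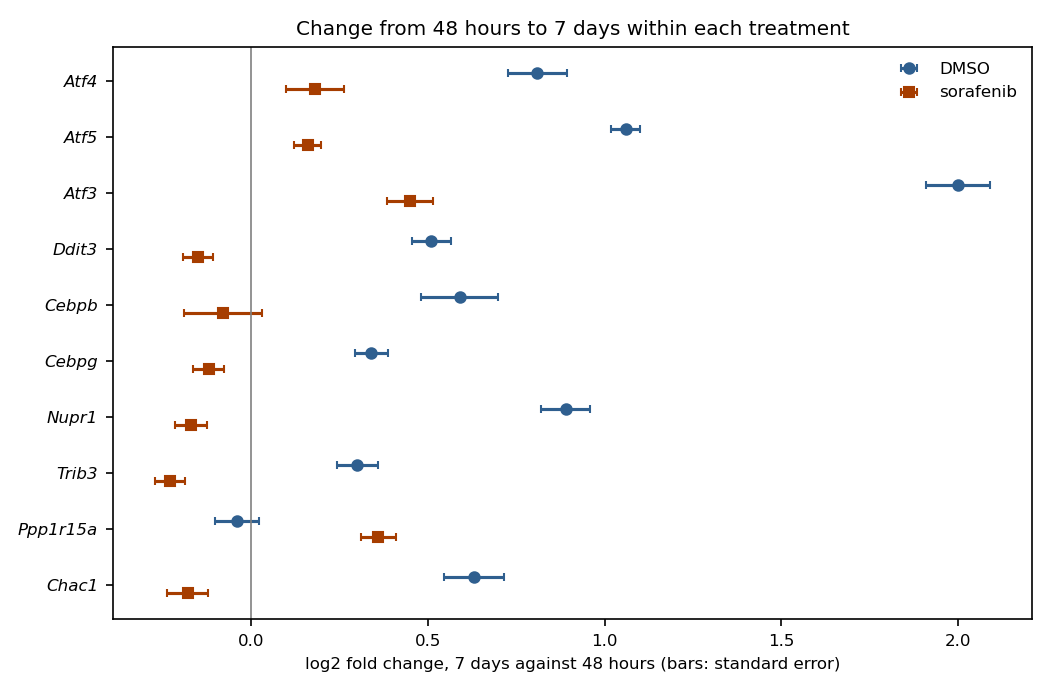
Log2 fold change from 48 hours to 7 days within DMSO (circles) and within sorafenib (squares) for the 10 genes, with bars of 1 standard error. DMSO points lie to the right of the sorafenib points for every gene but Ppp1r15a, from 0.30 for Trib3 to 2.00 for Atf3.

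The 6 lists of related genes show how the rest of the pathway moved. Counts of list genes are read beside the share of all genes called, 26.9% higher and 27.7% lower at 48 hours and 28.9% and 27.9% at 7 days. Because the lists were chosen with earlier results known, these counts are a description and not a test. Of 30 ATF4 target genes, most of them for amino acid synthesis, transport and tRNA charging and others for secreted signals and growth control, 29 rose and 1 fell at 48 hours (median log2 fold change 1.68), and all 30 rose at 7 days (median 1.08). Fgf21, a stress hormone of liver, went from 8.67 to 168 normalized counts at 48 hours (log2 fold change 4.27) and from 11.7 to 28.9 at 7 days (1.31). Slc7a11, the cystine importer, rose by 4.15 and 2.30, Cth, which makes cysteine, by 3.94 and 3.42, and Aldh1l2, of mitochondrial folate metabolism, by 3.68 and 2.99. Gdf15, a secreted stress signal, rose by 4.13, from a mean of 1.19 to 22.5 normalized counts, at 48 hours and by 3.64, from 2.15 to 30.3, at 7 days, and with so few counts in DMSO the size of these changes is imprecise. The gene that fell at 48 hours, named after its value was seen, was the mTORC1 inhibitor Ddit4, at -0.86, against 1.07 at 7 days. The response of 20 of these 30 genes was lower at 7 days than at 48 hours, and that of 3 was higher. Over all genes, 21.3% were called lower and 15.5% higher in the interaction. Slc3a2, Aldh18a1 and Slc38a2, on the lowered chromosomes, were not called in it. Without replicate 2 of sorafenib at 48 hours they were called lower, at -0.41, -0.36 and -0.15.

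Of 9 CHOP targets and death regulators, 8 rose and 1 fell at 48 hours, and 7 rose and 2 fell at 7 days (medians 1.12 and 1.64). Car6, a secreted carbonic anhydrase whose stress form CHOP induces, went from 2.32 to 1423 normalized counts at 48 hours (log2 fold change 9.19) and from 12.9 to 1840.1 at 7 days (7.11). Its DMSO libraries at 48 hours held 0.868 to 3.46 normalized counts, so the size of that change is imprecise. Gadd45a, a stress sensor of growth arrest, rose by 3.66 and 3.40, the ERK phosphatase gene Dusp4 by 2.72 and 1.64, and Ero1a, the oxidase of disulfide formation in the ER, by 1.12 and 2.41. The 3 genes of proapoptotic BH3-only proteins, named after their values were seen, went both ways. Bcl2l11 (BIM) was at -1.50 and -0.99, and Bbc3 (PUMA) rose by 0.41 and 1.43. Pmaip1 (NOXA), on a lowered chromosome, was at 0.43 (0.57 without replicate 2 of sorafenib at 48 hours) and -1.56. The antiapoptotic gene Bcl2, also named after its values were seen, rose by 2.36 and 1.86. The genes counted as higher in this list thus act both for and against cell death.

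In the other stress branches genes moved in both directions, so their medians say little of how far single genes moved, and no difference between lists was tested. Of 20 genes of ER chaperones and other branches of the unfolded protein response, 10 rose, 7 fell and 3 were not called at each time (median 0.11 at 48 hours and 0.12 at 7 days). The sensor genes Atf6 (2.29 and 1.63) and Ern1 (1.37 and 1.36) and the ER degradation genes Herpud1 (1.84 and 1.54) and Sel1l (1.41 and 0.90) rose at both times. The lowest of the list, named after its values were seen, was Sdf2l1, at -0.83 (-0.68 without replicate 2 of sorafenib at 48 hours) and -1.01. Of 12 mitochondrial chaperones and proteases, 7 rose, 1 fell and 4 were not called at 48 hours (median 0.25), and 5 rose, 3 fell and 4 were not called at 7 days (median 0.01). The largest rises were those of the protease gene Lonp1 (1.12 and 1.55), the HSP70 gene Hspa9 (1.07 and 0.59) and its partner Dnaja3 (0.87 and 0.57). These 3 genes lie on the lowered chromosomes and were at 1.25, 1.20 and 1.01 at 48 hours without replicate 2 of sorafenib. Of 16 genes of the eIF2 kinases and the eIF2 cycle, 6 rose, 3 fell and 7 were not called at 48 hours (median 0.14), and 6 rose, 6 fell and 4 were not called at 7 days (median -0.03). The guanine exchange subunit Eif2b3 (1.08 and 0.56) and the eIF2 subunits Eif2s2 (0.85 and 0.28) and Eif2s1 (0.44 and 0.11) rose at both times. So did Eif2b5 (0.40 and 0.50), which was at 0.54 at 48 hours without replicate 2 of sorafenib. Of the 4 kinase genes, of which only the first was named by rule, Eif2ak1 (HRI) fell by 0.25 and 0.49 and Eif2ak3 (PERK) by 0.23 and 0.46, while Eif2ak2 (PKR, 0.15 and 0.01) and Eif2ak4 (GCN2, -0.06 and 0.03) were not called. Without replicate 2 of sorafenib at 48 hours, the eIF2 list had 10 genes higher and 3 lower at 48 hours, with a median of 0.24, Eif2ak2 was called at 0.27, and the median of the ER list was 0.18.

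**Figure D4:**
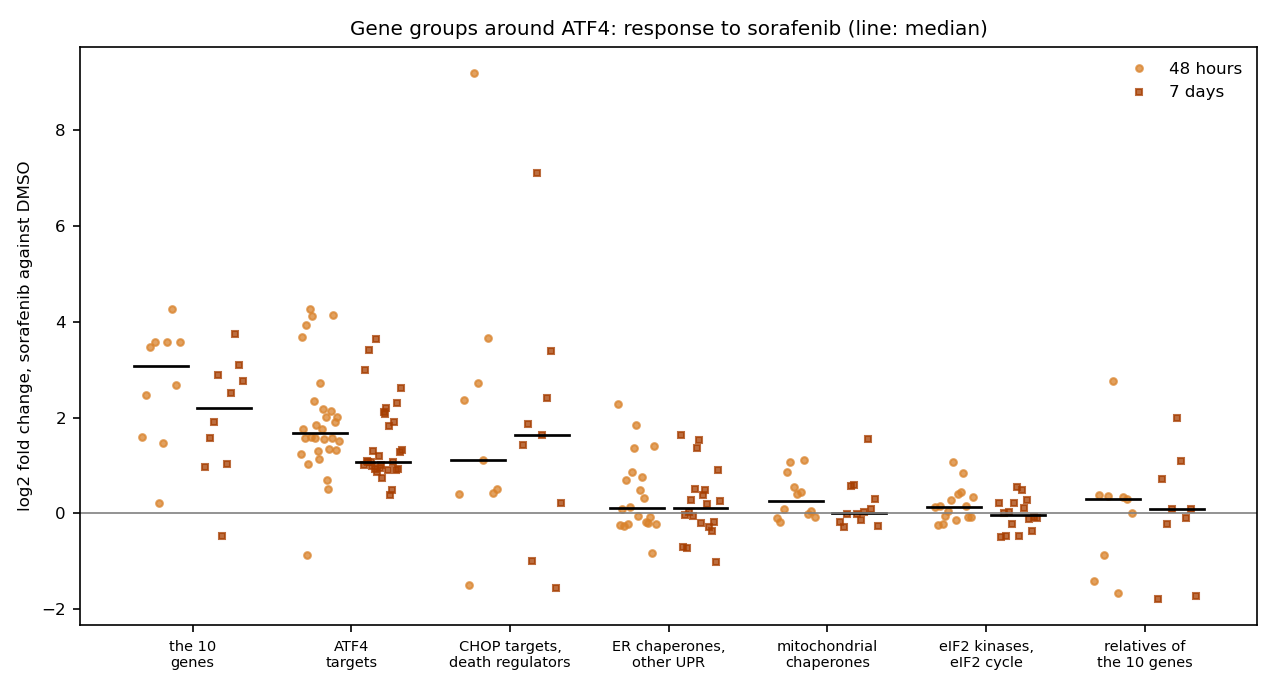
Log2 fold change of sorafenib against DMSO at 48 hours (circles) and 7 days (squares) for the 10 genes and 6 lists of related genes, 1 point a gene, with a line at the median. The medians of the 10 genes (3.08 and 2.21) and of the ATF4 targets (1.68 and 1.08) lie above those of the ER, mitochondrial, eIF2 and relatives lists, which run from -0.03 to 0.30. Those of the CHOP and death regulator list are 1.12 and 1.64, below the ATF4 targets at 48 hours and above them at 7 days.

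Close relatives set the 10 genes beside members of the same families. Of 12 relatives, 9 had enough counts to be tested, of which 5 rose, 3 fell and 1 was not called at 48 hours, and 2 rose, 3 fell and 4 were not called at 7 days. Jdp2, a bZIP repressor near Atf3 in sequence, rose by 2.77 and 1.99 (edgeR FDR 9.59e-19 and 3.82e-17). Trib2, a pseudokinase relative of Trib3, was at 0.01 at 48 hours (FDR 0.913) and fell by 1.72 at 7 days (FDR 9.97e-18). Trib1 was at 0.30 (FDR 0.00401, and 0.41 without replicate 2 of sorafenib at 48 hours) and 0.09 (FDR 0.319). Chac2, the constitutive relative of Chac1, was at 0.37 (FDR 0.0243) and 0.09 (FDR 0.569). Ppp1r15b, the constitutive eIF2 phosphatase subunit beside inducible Ppp1r15a, was at 0.35 (FDR 2.39e-09) and -0.09 (FDR 0.01). Among the C/EBP genes, Cebpa rose by 0.38 and 0.71 (FDR 4.76e-06 and 2.32e-09). Cebpd was at -0.87 (FDR 4.87e-07, and -0.74 without replicate 2 of sorafenib at 48 hours) and -0.23 (FDR 0.0703). Batf3 fell by 1.40 and 1.78 (FDR 1.35e-05 and 1.81e-06). Nupr2, with at most 11 counts in a library, was at -1.65 (FDR 0.0101) and 1.09 (FDR 0.054). Cebpe and Batf2 had 0 counts in all libraries and Batf at most 3.

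Genes whose levels followed Atf4 and Ddit3 most closely were found by the Euclidean distance between the 4 group means of log2 normalized counts, each centered, over the same 10646 genes. Nearest to Atf4 were Timp2 (distance 0.0495), the arginine transporter gene Slc7a1 (0.0552) and the actin regulator gene Dstn (0.087). Without replicate 2 of sorafenib at 48 hours they were Timp3 (0.0337), Pak3 (0.0829) and Timp2 (0.0944). Nearest to Ddit3 were Chac1 (0.11), the amino acid transporter gene Slc7a3 (0.144) and Aldh1l2 (0.191), and these 3 were also the nearest without that library. Nupr1 was 6th nearest to Ddit3, and Cebpg was the nearest of the other 9 genes to Atf4, at 148th, or 95th without that library. The distance is over 4 group means and is given as a description.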

How the data were processed

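RNA of 16 libraries, put into 4 groups by their labels, was prepared with the Illumina Stranded mRNA Prep kit and sequenced on an Illumina NovaSeq. Per the submitters' processing notes, reads were aligned to GRCm39 with STAR 2.7.1a and counted with featureCounts 2.0.6. The strand setting and annotation of the counting are not given in the sources used here. The values the authors deposited are raw counts per gene, with no normalization.

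Genes with at least 10 counts in total (20444, with 20396 removed) were fitted with edgeR 4.0.16 (R 4.3.3, quasi-likelihood test, TMM factors) as 4 groups without a block, and called at a Benjamini-Hochberg FDR under 0.05. Normalized counts are counts divided by total times TMM factor, relative to its geometric mean. Steps were tested on simulated data. The alternatives were DESeq2 1.42.0, its size factors, total counts only, no filter beyond 1 count, a fold threshold of 1 log2 unit in either direction, only the 8 libraries of a contrast, the replicate number as a block, and each library left out. Any pair of replicates differed by a chi-square of 1.49 per gene or more, above counting noise. Against the rest of its group, replicate 4 of DMSO at 7 days was at 41.4, 53.7 and 55. Replicate 2 of sorafenib at 48 hours was at 27, 30.7 and 29, and pairs of DMSO at 48 hours ran from 4.2 to 32.7. Without replicate 4 of DMSO at 7 days, all 10 genes were still called in the interaction.

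The 10 genes and the lists were chosen with earlier results of these data known. Named were the 10 genes, Trp53 and Myc, all close relatives, from each other list the 3 called genes with the largest absolute log2 fold change at each time, and the 3 genes nearest to Atf4 and to Ddit3. For 5 list genes the table holds older symbols. Levels per kilobase used the length of the GENCODE M39 canonical transcript.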

Additional observations from a re-analysis of the deposited data

Results flagged for a closer look

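In 3 of 40 gene and group combinations, 1 library stood apart from the other 3 by Dixon's gap test, where chance gives about 1 in 20. Atf4 in sorafenib at 48 hours was lowest in replicate 2, with a gap of 0.914 of the group's range. This is the library with lowered counts on chromosomes 15 to 19 and X. Atf5 in the same group was highest in that replicate (0.893), and Nupr1 in DMSO at 7 days was highest in replicate 3 (0.913).

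The log2 response to sorafenib differed between 7 days and 48 hours in all 10 genes by the interaction test in edgeR. The differences were -1.55 for Atf3, -1.06 for Nupr1, -0.90 for Atf5, -0.81 for Chac1, -0.68 for Cebpb, -0.66 for Ddit3, -0.63 for Atf4, -0.52 for Trib3, -0.46 for Cebpg and 0.40 for Ppp1r15a.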

How the results depend on the processing

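Of 1090 values for the 50 fold changes of the 10 genes under alternatives, 1068 kept their direction and their side of the FDR threshold, 18 were no longer called, 4 were newly called and 0 turned direction. The changes all concerned sorafenib over time, except Cebpb at 48 hours, which was called without replicate 4 of sorafenib (FDR 0.0068). In sorafenib over time, Cebpg was not called in 13 alternatives (highest FDR 0.158), Chac1 not with DESeq2's size factors (FDR 0.0519), total counts (0.0672), without sorafenib 48 hour replicate 1 (0.0506) or 7 day replicate 2 (0.0705), and Ddit3 not without 48 hour replicate 3 (0.0566). Atf4 was called with total counts (0.0278) and without 48 hour replicate 1 (0.0317) or replicate 4 (0.049). Requiring also a change of 1 log2 unit or more, not among the 1090 values, left 9 of the 10 genes at 48 hours and 8 at 7 days. Atf4 (0.97) and Cebpb (-0.46) fell below this threshold at 7 days. It left 2 of 10 genes in the interaction (0 higher, 2 lower), 2 in DMSO over time (2 higher) and 0 in sorafenib over time. Of list genes it left 43 at 48 hours (40 higher, 3 lower) and 35 at 7 days (31 higher, 4 lower), from 80 and 80. Without replicate 2 of sorafenib at 48 hours, the counts of the 10 genes called were 9, 10, 10, 9 and 8 at 48 hours, at 7 days, in the interaction, in DMSO and in sorafenib over time, and 87 and 85 list genes were called. The median over all genes in the interaction moved from 0.02 to 0.12 with total counts. The order of levels was also taken with no length, where Atf4 was again the highest in every group.

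Same-numbered DMSO and sorafenib libraries had correlated deviations of -0.0511 to 0.132, and 2 of 8 DMSO libraries were best matched by the sorafenib library of their number, so the libraries were taken to share only a number. With the replicate block, the counts of genes called were 9, 10, 10, 9 and 8, and 77 and 80 list genes.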
